A study of Mus musculus with 6 samples.

Results

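The transcription factors that build the ureteric lineage and keep the identity of its main cell type, the principal cell, were described in RNA from isolated mouse collecting duct cells. The 9 genes were Pax2, Pax8, Gata2, Gata3, Emx1, Grhl2, Elf5, Ehf and Tfcp2l1, chosen by name among 24913 genes with a matched identifier in the count files. They were chosen with earlier results of these data known. Cells came from kidneys of male C57BL/6J mice fed a low-NaCl diet (0.01 to 0.02% sodium, 3 libraries) or a high-NaCl diet (2.4% sodium, 3 libraries) for 5 days, and total RNA was sequenced. Sodium restriction raises aldosterone, the steroid that increases sodium uptake in the duct, and sodium loading lowers it. The labels mention no transgene or deletion. Nor do they give the isolation of the cells, the age of the mice or whether each library had its own animal. The p-values therefore cover the spread between libraries, part of which may be technical.

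The collecting duct grows from the ureteric bud, an outgrowth of the nephric duct. PAX2 and PAX8 act at the top of the lineage and switch on Gata3, and PAX8 stays on along much of the adult tubule. In the duct, GRHL2 keeps the epithelium tight together with its target Ovol2. GATA2, GATA3 and the ETS factors ELF5 and EHF are factors of the principal cell, the water- and sodium-absorbing cell, where, in mice, GATA2 and ELF5 drive Aqp2 and Avpr2. TFCP2L1 acts in both the principal cell and the acid-base transporting intercalated cell and, in mice, sets the balance between them through Jag1 and Notch. EMX1 is a homeobox factor best known from the forebrain, and its paralog EMX2 is needed for the ureteric bud in mice.

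What the counts can show differs widely among these genes, because the deposited counts are per UCSC transcript and reads shared by transcripts went uncounted. The countable share, the share of exonic bases that belong to 1 transcript alone, was 100% for Emx1 and Pax2, 96.7% for Tfcp2l1 and 96.6% for Pax8. It was 54.6% for Elf5, 31.2% for Grhl2, 9.78% for Gata2, 3.09% for Ehf and 0.0933% for Gata3. Gata3 had 3 countable bases and 0 reads in all 6 libraries, so its level could not be measured, and it was not tested. The counted stretch of Ehf was the first exon, of 140 bases (chr2:103283621-103283760), of 1 of its 3 transcripts (uc008lio.1). The others, uc008lip.1 and uc008liq.1, begin upstream at chr2:103303196 and had 0 countable bases, so their levels could not be measured. All counted Gata2 reads lay in 2 alternative first exons, of 110 bases (chr6:88193891-88194000) and 218 bases (chr6:88198664-88198881). Build mm10 is used throughout.

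The starts of the genes on which the results turn are shown from RefSeq (GRCm38.p6, the assembly of mm10), 250 bases before to 50 after the start. Emx1 is shown because it changed with diet, Tfcp2l1 as the gene with the most reads, and both starts of Gata2 because their first exons hold all its counted reads. Capitals mark the first 50 transcribed bases, and all 4 lie on the plus strand and begin the matched transcript of the count files.
Emx1 start (chr6:85187681-85187980): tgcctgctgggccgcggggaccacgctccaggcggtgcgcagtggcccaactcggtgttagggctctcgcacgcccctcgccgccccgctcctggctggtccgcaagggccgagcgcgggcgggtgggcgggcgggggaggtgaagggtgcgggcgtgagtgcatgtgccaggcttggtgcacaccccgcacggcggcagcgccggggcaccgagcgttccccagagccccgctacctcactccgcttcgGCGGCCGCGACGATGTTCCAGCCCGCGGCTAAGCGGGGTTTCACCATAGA
Tfcp2l1 start (chr1:118627695-118627994): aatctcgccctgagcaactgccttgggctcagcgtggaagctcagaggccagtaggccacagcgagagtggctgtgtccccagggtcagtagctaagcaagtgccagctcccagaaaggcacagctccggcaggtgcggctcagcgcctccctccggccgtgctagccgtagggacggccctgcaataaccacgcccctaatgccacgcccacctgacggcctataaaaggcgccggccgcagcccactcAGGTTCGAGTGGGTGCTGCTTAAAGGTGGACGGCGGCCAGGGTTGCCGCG
Gata2 distal start (chr6:88193641-88193940): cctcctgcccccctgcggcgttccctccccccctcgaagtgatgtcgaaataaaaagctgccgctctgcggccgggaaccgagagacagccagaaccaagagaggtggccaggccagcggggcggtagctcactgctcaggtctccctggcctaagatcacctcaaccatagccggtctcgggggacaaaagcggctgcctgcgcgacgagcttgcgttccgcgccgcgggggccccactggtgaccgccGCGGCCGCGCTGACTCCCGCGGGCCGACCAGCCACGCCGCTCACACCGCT
Gata2 proximal start (chr6:88198414-88198713): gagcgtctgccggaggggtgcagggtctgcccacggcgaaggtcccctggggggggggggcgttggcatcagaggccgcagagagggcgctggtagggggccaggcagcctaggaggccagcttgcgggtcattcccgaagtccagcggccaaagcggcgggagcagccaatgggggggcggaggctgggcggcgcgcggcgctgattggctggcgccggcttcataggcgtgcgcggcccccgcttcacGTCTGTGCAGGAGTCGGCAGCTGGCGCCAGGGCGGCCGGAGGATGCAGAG

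These windows were rich in G and C, at 74% for Emx1, 65.3% for Tfcp2l1, 69.3% for the distal and 73.7% for the proximal Gata2 start, against a median of 52.7% over all 32851 RefSeq promoters. A search of both strands covered 8 motifs. The GATA motif was read as AGATAA with either A or T as its first base and with either A or G as its last base. The grainyhead motif was AACNNGTT and the steroid receptor motif ACANNNTGT, where N is any base. For ETS factors the search took AGGAAGT, with either A or C as its first base. For TFCP2L1 it took a pair of CCNG half-sites 6 bases apart, and for homeobox factors TAATTA. The remaining motifs were the core promoter elements, the TATA box as TATAAA and the CCAAT box by its own letters. Tfcp2l1 held TATAAA beginning 28 bases before its start (position -28), a motif found in 13.6% of all promoters. The proximal Gata2 window held CCAAT at -83 and, on the other strand, at -45, and 37.4% of all promoters hold it. No match to any of the 8 lay in the Emx1 or distal Gata2 window, and no matches overlapped in the 4 windows. For the others, GATA is held by 29.8% of all promoters, grainyhead by 4.2%, ETS by 15.1%, TFCP2L1 by 29.5%, homeobox by 5.29% and steroid receptor by 6.85%. Of the 11 promoters listed for 7 of the 9 genes, 2 held GATA, 1 grainyhead, 1 ETS, 5 TFCP2L1 and none the homeobox or steroid receptor motif.

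The comparison asks how these genes differ between the low-NaCl and the high-NaCl diet, without a measure of aldosterone itself. Emx1 fell on the low-NaCl diet and was the only one of the 8 tested genes to pass, and none rose. Tfcp2l1 and Ehf lay higher on the low-NaCl diet, and Pax2 and Pax8 lower, in libraries that did not overlap between diets, but these differences did not pass. Gata2, Elf5 and Grhl2 had lower means on the low-NaCl diet, with overlapping libraries. Over all 10564 genes tested with edgeR's quasi-likelihood test at a Benjamini-Hochberg adjusted p of 0.05, 1.74% were lower and 1.72% higher, or 3.46% in all. The diets did not overlap in 5 of the 8 genes, against 23.9% of all genes, and 5 of the 8 had an unadjusted p under 0.05, against 18.3%. Those 5 were Tfcp2l1, higher, and Emx1, Pax2, Gata2 and Elf5, lower. DESeq2 called 1 of the 9 higher and 1 lower, with 8.11% of all genes called in either direction. By limma-voom 0 were called higher and 1 lower, with 2.92% of all genes called. The median log2 fold change of the 8 was -0.42 and that of all tested genes -0.0020. These counts describe the genes that passed the filter on low counts and say nothing of Gata3. Levels are given as CPM, read counts scaled to library size with TMM factors, and log2 fold changes as low-NaCl over high-NaCl.

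**Figure D1:**
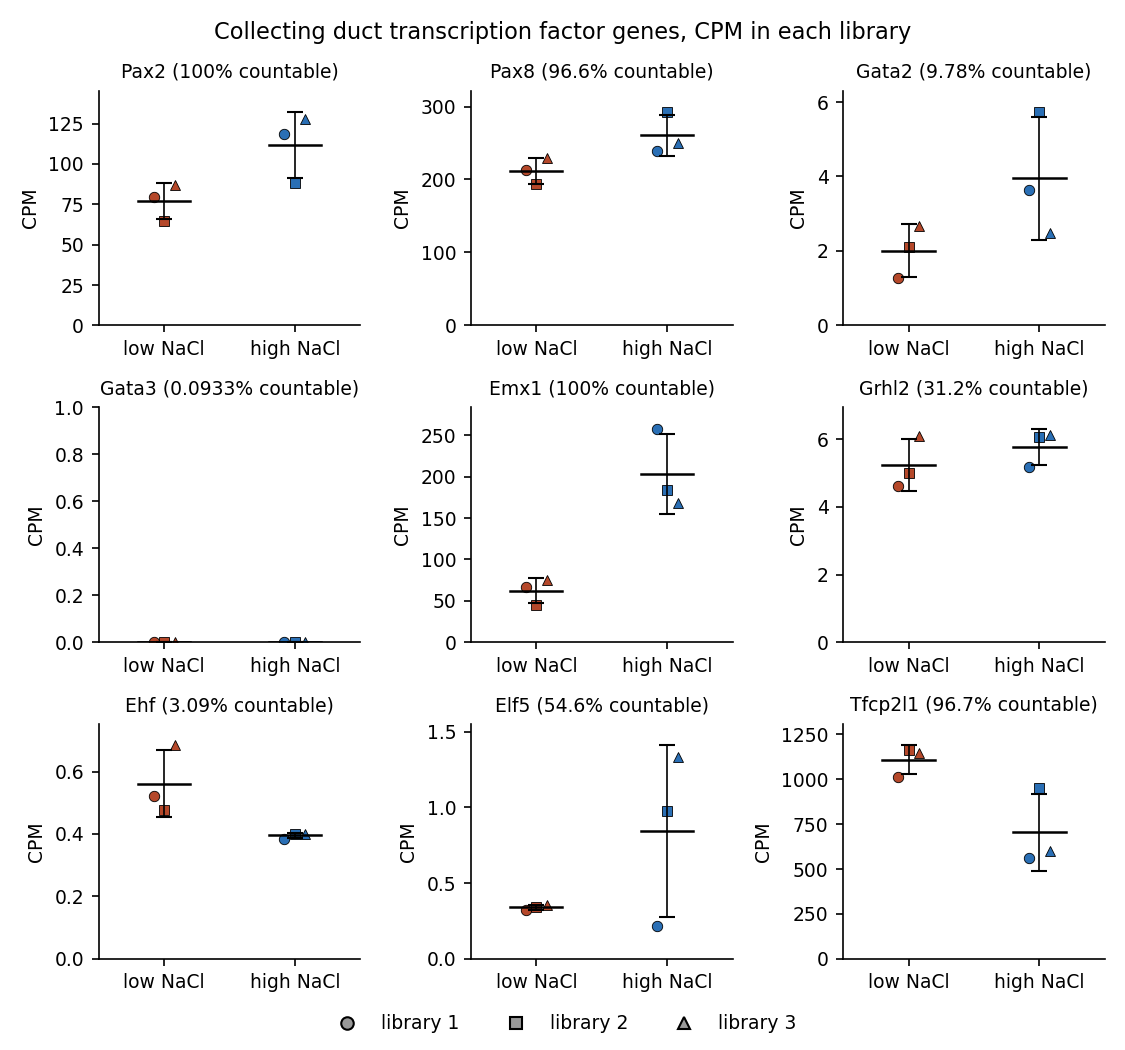
CPM of the 9 genes in each library, low-NaCl left and high-NaCl right, with the mean (bar) and SD (whiskers) of 3 libraries; the share of countable exonic bases is in each title. Emx1 lies at 45.2 to 74.98 CPM in low-NaCl and 168 to 258 CPM in high-NaCl libraries, and Gata3 is at 0 throughout.

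Library-wide facts bear on several of these values. Depth was 40334731 to 41701319 counts in the low-NaCl and 40101899 to 46861531 in the high-NaCl libraries, and 1 read was worth 0.0191 to 0.0275 CPM. High-NaCl library 2 stood apart from the others of its diet (chi-square per degree of freedom 149 and 244, against 38.1 to 86.9 for the other replicate pairs). Mitochondrial transcripts took 20.5 to 21.8% of counts on the low-NaCl diet, and 29.9, 21.9 and 28.7% in high-NaCl libraries 1, 2 and 3. Library 1 of each diet was sequenced in lane 1, the other low-NaCl libraries in lane 2 and the other high-NaCl libraries in lane 3. A lane term therefore rests the diet difference on lane 1, and with it 3 of 10564 genes passed. The summed level of 11 principal cell genes, mostly Aqp2, Aqp3 and Scnn1a, was 4814 to 6603 CPM in low-NaCl and 10020.5 to 12520 CPM in high-NaCl libraries. Aqp2 and Aqp3 had the lower mean on the low-NaCl diet, and Scnn1a the higher. The summed level of 14 intercalated cell genes was 3058 to 5954 CPM in low-NaCl and 2022 to 2268 CPM in high-NaCl libraries. Markers of other cell types were present. The 5 thick ascending limb genes summed to 163 to 193 CPM in low-NaCl and 99.3 to 162 CPM in high-NaCl libraries. Ptger3 was the largest part in every library, at 70.4 to 87.6 CPM in low-NaCl and 54.0 to 97.4 CPM in high-NaCl libraries. Cldn10, also among the 5, had 0 countable bases. Umod, another of the 5, counted over 2.27% of its bases, averaged 416 ± 27.9 CPM per countable kb in low-NaCl and 331 ± 61.1 in high-NaCl libraries. The 8 proximal tubule genes summed to 21.2 to 38.5 CPM in low-NaCl and 32.6 to 37.0 CPM in high-NaCl libraries, and 4 podocyte genes to 5.26 to 38.3 CPM in low-NaCl and 18.0 to 37.3 CPM in high-NaCl libraries. The 6 endothelial genes summed to 18.8 to 23.7 CPM in low-NaCl and 19.8 to 29.2 CPM in high-NaCl libraries, mostly Ehd3, with Emcn and the uncountable Pecam1 at 0 reads. The 6 urothelial genes summed to 7.79 to 12.4 CPM in low-NaCl and 8.83 to 17.9 CPM in high-NaCl libraries. Sums of the distal convoluted tubule, stromal, blood and immune genes reached at most 5.81 CPM in any library, and Ptprc had 0 reads. Ptprc was counted over 19.2% of its bases, and the distal convoluted tubule genes over 10.1% (Pvalb) to 39.1% (Slc12a3). Among the stromal, blood and immune genes the share ran from 0.35% (Pdgfrb) to 100% (such as Col1a1 and Cd3e). A low sum can therefore reflect uncounted reads. In bulk RNA, fewer cells of a type and less RNA per cell cannot be told apart.

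Emx1 measured 66.9, 45.2 and 74.98 CPM in low-NaCl libraries 1 to 3, against 258, 184 and 168 CPM in high-NaCl libraries 1 to 3. Every low-NaCl library lay below every high-NaCl one. The means were 62.3 ± 15.4 CPM in low-NaCl and 204 ± 48.2 CPM in high-NaCl libraries (SD, n = 3 each), a fall of 3.26-fold (log2 fold change -1.71 ± 0.23 SE, 95% interval -2.21 to -1.20, edgeR adjusted p = 0.00694). By p-value it ranked 34 among all 10564 genes. The reads came from 1 transcript of 3 exons (chr6:85187931-85204463), with 1984 to 3180 reads per low-NaCl and 6309 to 9642 per high-NaCl library. The difference passed in 16 of 17 alternatives. The call ended with a lane term (adjusted p = 0.178), where the log2 fold change was -1.95, the difference within lane 1.

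The paralog Emx2, named after its values were seen, did not pass. It measured 42.3, 51.2 and 51.4 CPM in the low-NaCl libraries against 43.9, 54.5 and 46.4 CPM in the high-NaCl ones, and the diets overlapped. Its log2 fold change was 0.00 ± 0.14 (adjusted p = 0.999), also with 100% of its bases countable. Per countable kb, Emx1 lay at 2.9 ± 0.827 times Emx2 in low-NaCl and 9.51 ± 3.05 times in high-NaCl libraries, which did not overlap. The two-sided exact permutation p was 0.1, the smallest that 3 against 3 libraries allow, and 0.167 adjusted over 5 such ratios, all chosen after the values were seen. Relative to Aqp2, the water channel of principal cells, Emx1 stood at 0.0265 ± 0.00483 per countable kb in low-NaCl and 0.0351 ± 0.00316 in high-NaCl libraries. These ratios overlapped between diets (exact permutation p = 0.2, adjusted 0.2). Emx1 and Aqp2 both fell, and the part of the cell mixture in the Emx1 difference was not tested.

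**Figure D2:**
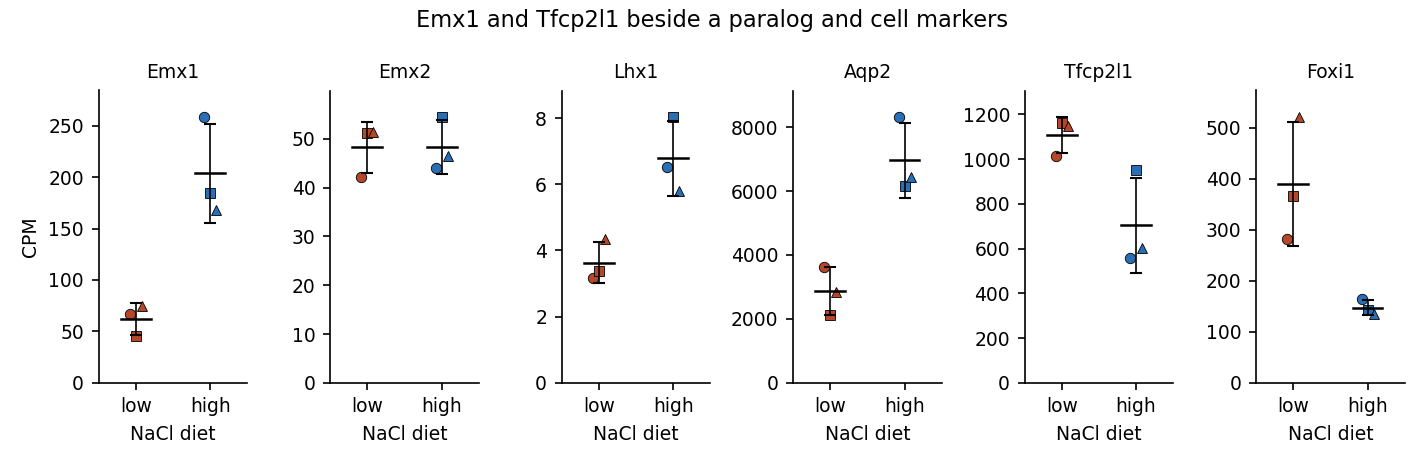
CPM in each library (low-NaCl left, high-NaCl right; bar, mean; whiskers, SD; n = 3) of Emx1, its paralog Emx2, the ureteric factor Lhx1, the principal cell gene Aqp2, Tfcp2l1 and the intercalated cell factor Foxi1. Emx1 and Aqp2 are lower and Foxi1 higher on the low-NaCl diet, while Emx2 has means of 48.3 CPM on both.

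Tfcp2l1 had the highest CPM of the 9. It measured 1015, 1160.5 and 1148 CPM in the low-NaCl libraries, against 559.6, 949.7 and 603 CPM in the high-NaCl libraries. The diets did not overlap, but high-NaCl library 2 lay close to the low-NaCl values and far from the other high-NaCl libraries. The means were 1108 ± 80.6 CPM in low-NaCl and 704 ± 214 CPM in high-NaCl libraries, and the log2 fold change was 0.65 ± 0.21 (95% interval 0.18 to 1.13), short of the threshold (adjusted p = 0.136). Without high-NaCl library 2 it passed (log2 fold change 0.93, adjusted p = 0.0137), as it did by DESeq2 with all libraries (adjusted p = 0.0368). The mitochondrial share moved with these values, since the high-NaCl libraries low in Tfcp2l1 were those with over 25% mitochondrial counts. Without them library 2 is the only high-NaCl library and the log2 fold change was 0.21. A short transcript of Tfcp2l1 (uc007cik.1), counted over 168 bases of its last exon, had 10 to 24 reads per library. It averaged 0.457 ± 0.0989 CPM in low-NaCl and 0.285 ± 0.00896 CPM in high-NaCl libraries (adjusted p = 0.45 among 11940 identifiers). Per countable kb the long transcript lay far above the short one, at 124 ± 8.95 against 2.72 ± 0.589 CPM per kb in low-NaCl libraries.

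Jag1, the Notch ligand downstream of TFCP2L1 in mice and named after its values were seen, measured 85.5 ± 15.7 CPM in low-NaCl and 57.5 ± 9.7 CPM in high-NaCl libraries (log2 fold change 0.57 ± 0.18, adjusted p = 0.115). Foxi1, the factor that specifies intercalated cells, rose 2.64-fold, to 389 ± 121 CPM in low-NaCl against 147 ± 15.4 CPM in high-NaCl libraries (adjusted p = 0.0127). Per countable kb, Tfcp2l1 stood at 0.772 ± 0.184 times Foxi1 in low-NaCl and 1.25 ± 0.424 times in high-NaCl libraries, and these ratios overlapped (exact permutation p = 0.2, adjusted 0.2). Relative to Pax8 it stood at 1.41 ± 0.174 in low-NaCl and 0.713 ± 0.134 in high-NaCl libraries, without overlap (exact permutation p = 0.1, adjusted 0.167). This last pair of ratios kept high-NaCl library 2, at 0.867, with its own diet. Pax8, by which these ratios were divided, was itself highest in that library (293 CPM) and had a lower mean on the low-NaCl diet. The separation is therefore not that of Tfcp2l1 alone.

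Pax2 and Pax8, paired-box factors of the nephric lineage, both lay lower on the low-NaCl diet without passing. Pax2 measured 79.6, 64.6 and 86.7 CPM in the low-NaCl libraries against 119, 88.4 and 128 CPM in the high-NaCl ones. High-NaCl library 2 lay just above the highest low-NaCl library. The log2 fold change was -0.54 ± 0.17 (95% interval -0.92 to -0.15, adjusted p = 0.134). It passed without high-NaCl library 2 (-0.68, adjusted p = 0.0331), and it was -0.22 without the libraries with over 25% mitochondrial counts. Pax8 measured 212, 193 and 229 CPM in the low-NaCl libraries, against 239, 293 and 249.7 CPM in the high-NaCl ones. Here the order within the high-NaCl diet was turned round, with library 2 the highest. The log2 fold change of Pax8 was -0.30 ± 0.14 (95% interval -0.62 to 0.02, adjusted p = 0.306), and it was -0.17 with a lane term and -0.49 without the libraries with over 25% mitochondrial counts. A GENCODE gene, Gm13415, overlaps exons of Pax8 on the other strand, and reads of the pair cannot be told apart where only the Pax8 identifier was counted. Pax8 is also made in other tubule segments. The thick ascending limb gene Slc12a1, the only gene edgeR called among the markers of other cell types, rose to 61.6 ± 3.55 CPM in low-NaCl against 32.6 ± 5.72 CPM in high-NaCl libraries (adjusted p = 0.0159). DESeq2 also called the thick ascending limb gene Cldn16 higher and the endothelial gene Plvap lower, and limma-voom called neither.

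Gata2, the GATA factor of principal cells, measured 1.27, 2.09 and 2.66 CPM in the low-NaCl libraries, against 3.63, 5.74 and 2.47 CPM in the high-NaCl libraries. The diets overlapped, since low-NaCl library 3 lay above high-NaCl library 3. The log2 fold change was -0.98 ± 0.36 (95% interval -1.78 to -0.18) and did not pass (adjusted p = 0.183). It was -0.60 without high-NaCl library 2, -1.52 with a lane term and -1.53 without the libraries with over 25% mitochondrial counts. In mice the distal first exon is known from blood-forming and neural cells, and the proximal one is used more widely. Reads of the proximal first exon (uc009cvd.2) numbered 47, 80 and 95 in the low-NaCl and 113, 264 and 80 in the high-NaCl libraries. Reads of the distal first exon (uc009cvc.2) numbered 4, 12 and 18 in the low-NaCl and 19, 36 and 13 in the high-NaCl libraries. The proximal exon thus held 87.7 ± 4.1% of Gata2 reads in low-NaCl and 86.5 ± 1.28% in high-NaCl libraries, and the shares of single libraries ran from 84.1 to 92.2%. The widest exact 95% interval of a single share was 81.1 to 97.8% (low-NaCl library 1) and covers counting error only. These are shares of reads, not corrected for the 218 countable bases of the proximal and 110 of the distal exon. Per countable kb the proximal exon measured 8.0 ± 2.48 CPM in low-NaCl and 15.7 ± 6.81 CPM in high-NaCl libraries, and the distal one 2.42 ± 1.48 CPM in low-NaCl and 4.72 ± 1.56 CPM in high-NaCl libraries. Their log2 fold changes were -0.99 ± 0.35 and -0.97 ± 0.54, and neither passed (adjusted p = 0.18 and 0.404).

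Elf5 and Ehf, neighbouring ETS genes on chromosome 2 (chr2:103411688-103450989 and chr2:103263433-103303278), were counted in few reads. Elf5 measured 0.323, 0.341 and 0.354 CPM in the low-NaCl libraries, against 0.22, 0.975 and 1.33 CPM in the high-NaCl libraries. The low-NaCl libraries lay within a narrow band, and high-NaCl library 1 lay below it while the other high-NaCl libraries lay above. The log2 fold change was -1.31 ± 0.57 (95% interval -2.58 to -0.04, adjusted p = 0.259). It reversed to 0.55 with a lane term, which compares 13 reads with 8, and was -0.84 without high-NaCl library 3. Nearly all Elf5 reads came from the first exon of the transcript uc008liv.2 (121 countable bases, chr2:103424068-103424188), with 12 to 15 reads in low-NaCl and 8 to 48 in high-NaCl libraries. The last exon of the transcript uc012cag.1 gave 2437 further countable bases and only 0 or 1 read in low-NaCl and 0 to 7 reads in high-NaCl libraries. Most of the Elf5 countable share of 54.6% is therefore a stretch with few or no reads.

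Ehf, an ETS factor of epithelia, measured 0.522, 0.478 and 0.684 CPM in the low-NaCl libraries against 0.385, 0.402 and 0.399 CPM in the high-NaCl ones. The diets did not overlap, on 21 to 29 reads per low-NaCl and 14 to 21 reads per high-NaCl library. The log2 fold change of 0.50 ± 0.37 did not pass (95% interval -0.33 to 1.34, adjusted p = 0.526). Grhl2, the grainyhead factor of duct epithelium, measured 4.62, 5.01 and 6.11 CPM in the low-NaCl libraries against 5.17, 6.06 and 6.12 CPM in the high-NaCl ones. Those diets overlapped, and the log2 fold change was -0.14 ± 0.19 (adjusted p = 0.749). Its 95% interval was -0.57 to 0.29 and covers the spread between libraries only. It rests on the 1581 countable bases, which are nearly all in exons 1 to 8 of the long transcript (uc007vne.2). Its first exon overlaps the GENCODE gene Gm16136 on the other strand, and the last exon of Tfcp2l1 holds Gm23497 on the same strand, so reads of these pairs cannot be told apart either. The short Grhl2 transcript (uc007vnf.2), with a first exon of its own of 129 bases, had 2 reads in high-NaCl library 2 and 0 in every other library. A count of 0 allows up to 3 reads, or 0.0574 to 0.0825 CPM per library.

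**Figure D3:**
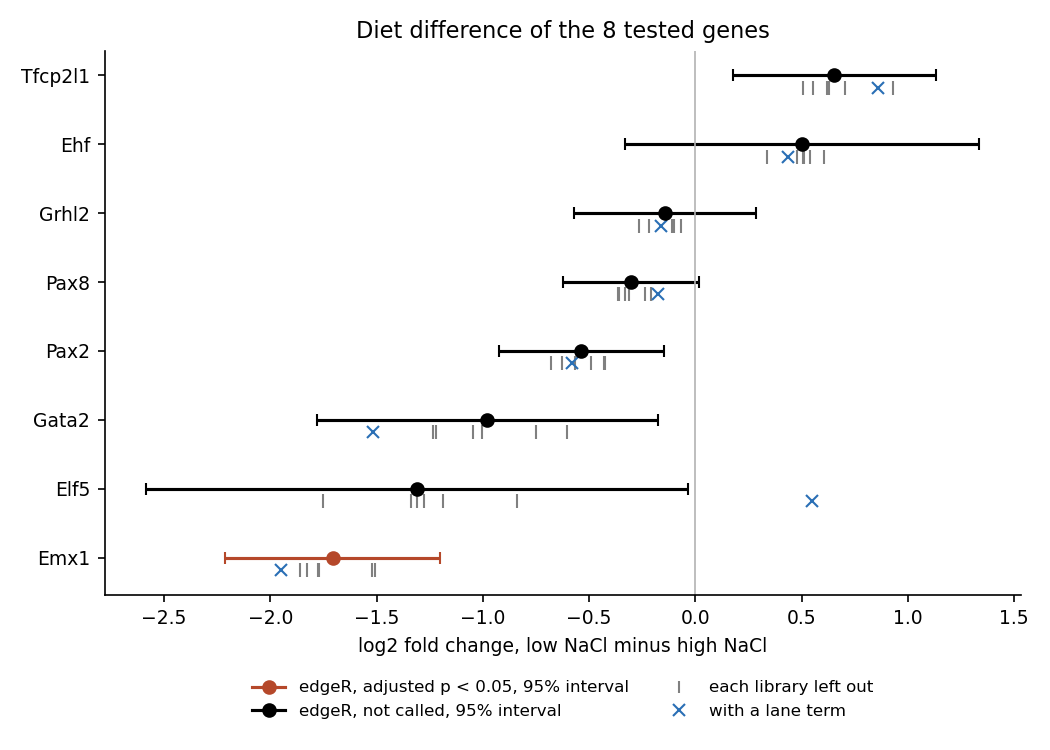
Log2 fold change (low-NaCl minus high-NaCl) of the 8 tested genes with its 95% interval; grey ticks give the value with each library left out and blue crosses that with a lane term. The interval of Emx1 lies between -2.21 and -1.20, and the lane term turns Elf5 to 0.55.

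Levels of the genes can be set side by side only per length, here as CPM per countable kb. On the low-NaCl diet the order of the well-counted genes was Tfcp2l1 (124 ± 8.95), Pax8 (86.7 ± 7.32), Emx1 (53.1 ± 13.1) and Pax2 (25.4 ± 3.72), and the libraries of neighbours in that order did not overlap. On the high-NaCl diet it was Emx1 (173.5 ± 41.1), Pax8 (107 ± 11.6), Tfcp2l1 (78.6 ± 23.9) and Pax2 (36.9 ± 6.82), and the libraries of Pax8 and Tfcp2l1 overlapped. The other genes had lower levels. On the low-NaCl diet the proximal exon of Gata2 (8.0 ± 2.48) was followed by Ehf (4.01 ± 0.774), Grhl2 (3.61 ± 0.531) and Elf5 (2.67 ± 0.232), of which only Ehf and Grhl2 overlapped as neighbours. On the high-NaCl diet the order was Gata2 (15.7 ± 6.81), Elf5 (6.29 ± 3.98), Grhl2 (3.97 ± 0.36) and Ehf (2.82 ± 0.0632), of which only Elf5 and Grhl2 overlapped as neighbours. These stretches are first exons or the 5′ part of the gene, where reads that run on into a shared exon went uncounted, so their levels may be set too low. Elf5 and Ehf are placed by the first exon of a single transcript each, and the order depends on that choice. Over all its countable bases Elf5 measured 0.133 ± 0.00604 in low-NaCl and 0.329 ± 0.222 in high-NaCl libraries, below the other genes.

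**Figure D4:**
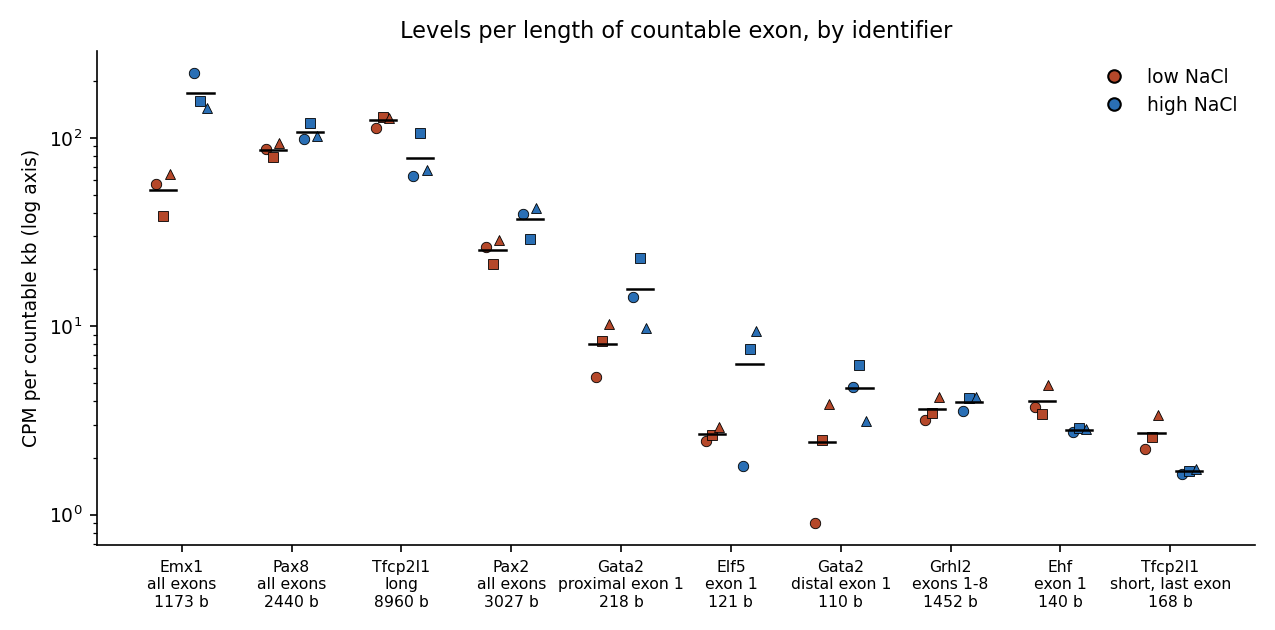
CPM per countable kb (log axis) of each tested identifier in each library, low-NaCl left and high-NaCl right within each column, bars at the means, with the counted stretch and its countable bases under each name. Emx1 lies below Tfcp2l1 and Pax8 on the low-NaCl diet (53.1) and above both on the high-NaCl diet (173.5).

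Genes around these factors were taken from 6 lists. Countable shares in these lists ran from 0% (Ap1m2) to 100% (such as Emx2), so a gene not tested or not called need not be low or unchanged. Among all tested genes, edgeR called 3.46% and gave 18.3% an unadjusted p under 0.05. DESeq2 called 8.11% of all genes and limma-voom 2.92%. Of 17 other factors of the ureteric lineage 10 were tested, none passed and 2 had an unadjusted p under 0.05 (median log2 fold change 0.04). Lhx1, a LIM homeobox factor of the nephric duct, had the smallest p, at 3.16, 3.39 and 4.34 CPM in the low-NaCl against 6.52, 8.03 and 5.8 CPM in the high-NaCl libraries. These did not overlap, and its log2 fold change of -0.90 ± 0.21 lay just outside the threshold (adjusted p = 0.0526). DESeq2 called Lhx1 lower and Sox9 higher, and limma-voom called neither. Sox9, a factor of the ureteric tips, measured 2.69 ± 1.11 CPM in low-NaCl and 1.28 ± 0.0921 CPM in high-NaCl libraries (adjusted p = 0.125). Of 16 paralogs of the 9 factors 6 were tested and 0 passed by edgeR, DESeq2 or limma-voom or had an unadjusted p under 0.05 (median -0.42), with Grhl3 at -0.75 ± 0.34 (adjusted p = 0.285) and Elf3 at -0.86 ± 0.46 (adjusted p = 0.362). The countable share of the paralogs ran from 3% (Elf3, 60 bases and 9 to 23 reads per library) to 100% (such as Grhl3). Gata1, the blood GATA factor, and Pax5, the B cell PAX factor, had 0 reads in every library with 87.4% and 100% of their bases countable. Of 16 genes of GRHL2 and of epithelial junctions, 12 were tested, none passed and 3 had an unadjusted p under 0.05 (median -0.12). DESeq2 called 1 of them, Cldn3, and limma-voom none. Cldn3, a tight junction claudin, measured 70.3 ± 9.78 CPM in low-NaCl and 112 ± 26.8 CPM in high-NaCl libraries (adjusted p = 0.0899), and Esrp2, an epithelial splicing factor, 39.1 ± 4.87 CPM in low-NaCl and 27.8 ± 3.13 CPM in high-NaCl libraries (adjusted p = 0.107).

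Of 18 ureteric genes linked to GATA and PAX factors, 11 were tested and 1 fell, Calb1, a calcium-binding protein of the connecting tubule and duct (413 ± 59.1 CPM in low-NaCl and 1058 ± 146 CPM in high-NaCl libraries, adjusted p = 0.00658). The median was -0.36, with Wnt9b, a ligand of the ureteric stalk, at -0.46 ± 0.16 (adjusted p = 0.157) and Wnt4, a ligand of the early nephron, at -0.56 ± 0.22 (adjusted p = 0.214). Among all tested genes, edgeR called 1.74% lower and 1.72% higher, and DESeq2 called 8.11% and limma-voom 2.92% in either direction. Of 10 tested principal cell genes 3 fell, none rose and the median was -1.27, and DESeq2 called 7 lower and limma-voom 4. Those 7 included Fxyd4, Hsd11b2 and Scnn1b, counted over only 0.404%, 2.27% and 5.97% of their exonic bases, and those 4 included Hsd11b2. Fxyd4 had 3 countable bases and 4 to 43 reads per library. Of the 10, 3 had positive and 7 negative log2 fold changes. Scnn1a, another sodium channel subunit, named after its values were seen, measured 1900.0 ± 285 CPM in low-NaCl and 1288 ± 242 CPM in high-NaCl libraries without overlap (log2 fold change 0.56 ± 0.19, adjusted p = 0.154). The genes that fell were the water channels Aqp2 (2869.5 ± 744 CPM in low-NaCl and 6964 ± 1176 CPM in high-NaCl libraries, adjusted p = 0.0222) and Aqp3 (log2 fold change -1.27, adjusted p = 0.0193) and the sodium channel subunit Scnn1g (-1.27, adjusted p = 0.0127). Hsd11b2, the enzyme that shields the mineralocorticoid receptor, had -1.80 ± 0.44 (adjusted p = 0.0573), and Avpr2, the vasopressin receptor driven by GATA2 and ELF5, -0.86 ± 0.22 (adjusted p = 0.0705). The Hsd11b2 value rests on 42 countable bases, with 12 to 39 reads in low-NaCl and 52 to 96 reads in high-NaCl libraries. Avpr2 was counted over 23.7% of its exonic bases. Of 13 tested intercalated cell genes 7 rose and none fell, with a median of 1.36, and DESeq2 called 10 higher and limma-voom 5. Besides Foxi1 these were the proton pump subunits Atp6v1g3 (1.45) and Atp6v0d2 (1.36), the anion exchanger Slc4a1 (1.72), the homeobox factor Hmx2 (1.39), the oxoglutarate receptor Oxgr1 (1.34) and Hepacam2 (1.47), on the log2 scale with adjusted p from 0.00658 to 0.0448. Slc26a4, the anion exchanger pendrin, had 1.08 ± 0.27 (adjusted p = 0.0648) and the pump subunit Atp6v0a4, counted over 6.14% of its bases, 1.04 ± 0.26 (adjusted p = 0.0659). These lists were drawn up with results of these data known, and their direction is no independent support for that of the 9 factors.

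**Figure D5:**
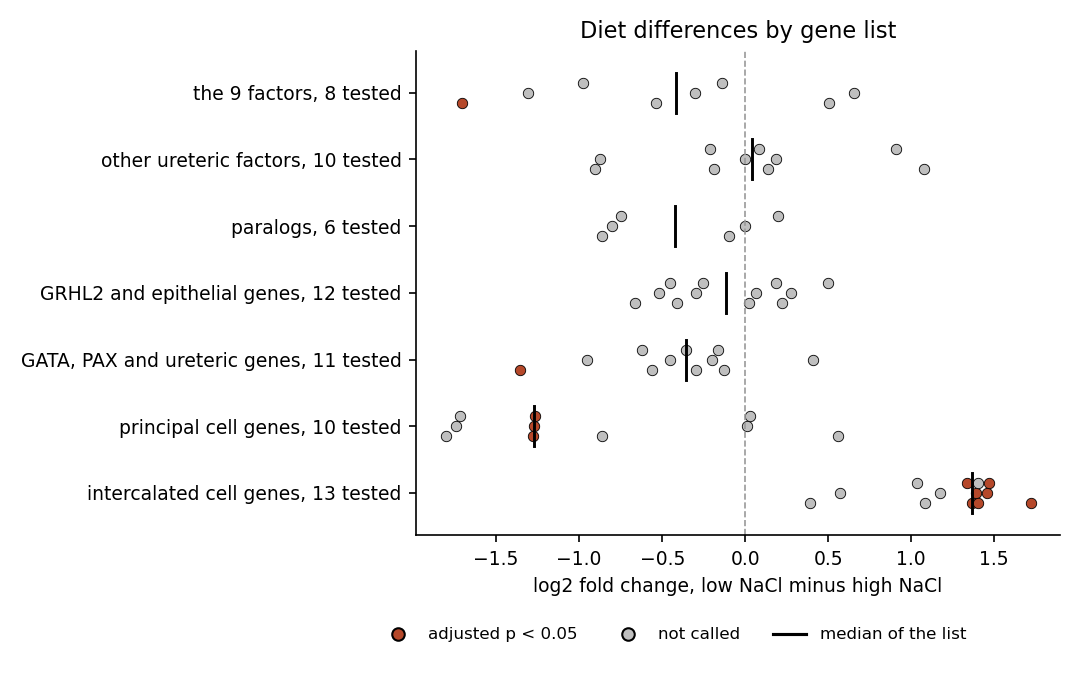
Log2 fold change (low-NaCl minus high-NaCl) of each tested gene by list, with black bars at the medians and a dashed line at the median of all genes. Genes that passed are red: Emx1 among the 9 factors, Calb1, 3 principal cell genes to the left and 7 intercalated cell genes to the right.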

How the data were processed

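Each deposited file holds the raw counts of 1 library per UCSC transcript (build mm10). The file headers give featureCounts 1.5.0-p3 as the authors' counting program and show no strand or overlap option, so strand was ignored and reads touching more than 1 identifier went uncounted. FastQC, Subread and edgeR are named in the submitters' processing notes. The sources used here name no aligner setting or trimming. Identifiers (59121) were matched to GENCODE M21 genes (GRCm38) by identical introns (41510) or by at least 50% of exonic bases on the same strand (11061), and summed to 24913 genes. Total counts were the library sizes.

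The 10564 genes passing filterByExpr entered edgeR 4.0.16 (R 4.3.3; TMM factors, glmQLFit with robust estimation, glmQLFTest, no covariate), with Benjamini-Hochberg adjustment and a threshold of 0.05. SEs were taken from the log2 fold change and its F statistic. Alternatives were 3 other scalings, 2 other filters, DESeq2 1.42.0, limma-voom (limma 3.58.1), a replicate block, a lane term, a 75% overlap, each identifier alone, each library left out and, added after the data were seen, leaving out the libraries with over 25% mitochondrial counts. The procedure was tested on simulated counts.

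The 9 genes and the 6 lists were chosen with earlier results of these data known. Named genes were the 9, all called members of each list and its next 2 by p-value, and others only where stated. For each of the 9 genes with a range over 1 in log2 CPM, the 3 nearest profiles were named, among tested genes whose mean log2 CPM was 1 or more.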

Additional observations from a re-analysis of the deposited data

How the results depend on the processing

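Emx1 was the only one of the 9 genes called lower in the main test, and none was called higher. With DESeq2, 1 was called higher (Tfcp2l1). With the replicate block, 1 was called higher (Tfcp2l1, adjusted p = 0.0214) and 2 lower (Emx1, 0.00424, and Pax2, 0.0107). With a lane term, 0 were called lower. With each library left out in turn, 0 to 1 were called higher and 1 to 2 lower. The log2 fold change of Elf5 reversed to 0.55 with a lane term. Over all genes 366 passed in the main test, 136 with total-count scaling, 857 by DESeq2, 912 with the replicate block, 3 with a lane term, 123 without the libraries with over 25% mitochondrial counts and 75 to 512 with each library left out. Those counts were 478, 75 and 135 without low-NaCl libraries 1, 2 and 3, and 162, 512 and 87 without high-NaCl libraries 1, 2 and 3. Leaving out the libraries rich in mitochondrial counts leaves 1 high-NaCl library, assumed to vary like the others. The causes were not tested. Directions of the 7 tested genes other than Elf5 held in every alternative run, and the CPM filter removed Elf5 and Ehf.

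Whether replicate numbers pair the libraries could not be decided. Deviations from the diet means correlated at 0.409, 0.466 and -0.0398 between libraries of the same number, over 6887 genes. Libraries 1 and 2 correlated best with their own number, and library 3 did not. Deviations from a shared mean are not independent of each other, so these correlations cannot settle it. Total-count scaling moved the median log2 fold change of all genes to 0.09. Ehf, Gata2 and Elf5 rest on 8 to 300 reads per library, and a difference in Gata3 was not measurable at all.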

Other observations

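Profiles across the 6 libraries were compared by Euclidean distance between centred log2 CPM values, for the 4 of the 9 genes whose values spanned more than 1 on the log2 scale. Those were Emx1 (2.51), Elf5 (2.36), Gata2 (2.14) and Tfcp2l1 (1.05). The profiles nearest to Emx1 belonged to E2f2, a cell cycle factor (distance 0.327), Id3, an inhibitor of helix-loop-helix factors (0.407), and Marcksl1, an actin-binding protein (0.429). All of these fell on the low-NaCl diet, with log2 fold changes of -1.88, -1.62 and -1.44 (edgeR adjusted p = 0.00729, 0.00658 and 0.00793). Nearest to Gata2 were Crybg1 (0.438), Phkg1 (0.469) and Arhgef4 (0.476), with log2 fold changes of -0.79, -0.87 and -0.89 that did not pass. Nearest to Tfcp2l1 were Gm15455 (0.144), Nktr (0.148) and Prelid3b (0.19), at 0.70, 0.67 and 0.53, which did not pass either. The nearest profiles to Elf5 were farther off, with Mcm3 at 0.949, Dck at 1.12 and Klf2 at 1.26, and none of these passed the diet test. The candidates numbered 6886 genes, or 6887 for Elf5, and with 6 libraries in a pair of groups such likeness says nothing of shared function or control.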
